A study of Mus musculus with 2 samples.

Results

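The CXCR3 and CXCR6 chemokine axes are described here across the cell clusters of a mouse tumour, as 5 genes taken by name from the 18685 genes measured. They are the CXCR3 ligands Cxcl9 and Cxcl10, the CXCR6 ligand Cxcl16, and the receptor genes Cxcr3 and Cxcr6. The tumours were percutaneous grafts of Hep1-6, a mouse hepatoma line, in wild-type male C57BL/6 mice aged 6 to 8 weeks, kept free of specific pathogens on a normal diet. Mice received a SIGLEC15 antibody or IgG by intraperitoneal injection. The study states 3 mice for each treatment, but each treatment gave 1 library, so mice are pooled and cannot be told apart. Cells enriched with CD45 beads were mixed in equal parts with unsorted cells before loading, which can set the proportion of immune cells. No complete row for any of the 5 genes could be read from the IgG library's matrix, so their levels in IgG tumours were not analysed here and no difference between treatments is given. Every level below comes from the SIGLEC15 antibody library.

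CXCL9 and CXCL10 are secreted chemokines that cells make in response to interferon gamma, and both draw activated T cells and natural killer (NK) cells through the receptor CXCR3. CXCL16 is made as a membrane-bound chemokine, can be shed by the proteases ADAM10 and ADAM17, and binds CXCR6, a receptor of activated and tissue-resident T cells. In tumours, macrophages and dendritic cells are known sources of these ligands.

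Cxcl9 (ENSMUSG00000029417) and Cxcl10 (ENSMUSG00000034855) lie close together on mouse chromosome 5, both on the minus strand, and their starts lie 20810 bases apart. In GENCODE M21 on GRCm38, Cxcl9 spans bases 92321347 to 92328079 and Cxcl10 spans 92346638 to 92348889. The 250 bases before each start are shown because the 2 ligands differed in the clusters where they were highest. Sequences are from RefSeq on GRCm38.p6 and read 5′ to 3′ on the gene's strand. Capitals mark matches to the interferon-stimulated response element core GAAANNGAAA and to the kappa B motif GGGANTTCC, both motifs chosen after the sequences had been seen and searched on both strands.
Cxcl9, chr5:92328080-92328329: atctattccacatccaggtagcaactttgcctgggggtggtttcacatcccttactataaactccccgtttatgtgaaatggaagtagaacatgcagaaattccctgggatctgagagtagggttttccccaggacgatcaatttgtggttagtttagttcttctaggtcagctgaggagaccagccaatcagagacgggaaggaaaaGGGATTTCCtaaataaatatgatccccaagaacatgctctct
Cxcl10, chr5:92348890-92349139: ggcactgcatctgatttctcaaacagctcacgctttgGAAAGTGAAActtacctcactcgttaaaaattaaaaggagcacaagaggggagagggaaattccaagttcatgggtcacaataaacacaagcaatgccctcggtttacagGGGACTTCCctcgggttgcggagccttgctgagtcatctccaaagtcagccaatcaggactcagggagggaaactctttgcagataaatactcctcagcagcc
The kappa B letters were present in both promoters, starting 42 bases before the Cxcl9 start and 103 bases before the Cxcl10 start. The response element core was present in the Cxcl10 window, 213 bases before the start, and these letters were not in the Cxcl9 window. Of 32851 mouse promoter windows of this length, 2.98% held GAAANNGAAA and 1.43% held GGGANTTCC. The gamma-activated site TTCNNNGAA and the T-box motif TCACACC, which 7.02% and 3.33% of windows held, had no match in the windows of Cxcl9, Cxcl10, Cxcr3 or Cxcr6. A match describes the letters and does not show that a factor binds. Promoters were matched for 4 of the 5 genes, all but Cxcl16. By the same annotation, Cxcl16 (ENSMUSG00000018920) lies on chromosome 11 (70453983 to 70459984, minus strand), Cxcr3 (ENSMUSG00000050232) on chromosome X (101731535 to 101734269, minus strand) and Cxcr6 (ENSMUSG00000048521) on chromosome 9 (123806475 to 123811760, plus strand).

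The library held 5482 cells in 30 clusters named by the authors, with 74168827 unique molecular identifiers (UMIs, each a tag for 1 captured transcript) and a median depth of 13714.5 UMIs per cell (range 553 to 46558). It shared 11 cell barcodes with the 5765 cells of the IgG library. Levels are the UMIs of a gene per 1000000 UMIs of its cluster (CPM). Reads came from transcript 3′ ends and CPM are not divided by gene length, so levels are compared between clusters and not between genes. Ranges in parentheses are exact 95% intervals, Poisson for levels and Clopper-Pearson for shares. They cover counting error only, not the spread between mice or cells. Tumour clusters held 84.3% of all UMIs. Some clusters held markers of more than 1 cell type. Neutrophil markers summed to between 23860 and 141400 CPM in MDSC_1 to MDSC_4 and to 1034 CPM in MDSC_5, where macrophage markers summed to 7091 CPM and hepatoma markers to 5985 CPM. The macrophage list includes Apoe, which liver cells also express, and summed to between 2819 and 12540 CPM in tumour clusters. C1qa, C1qb and C1qc summed to 1658 CPM in MDSC_5 and 9859 CPM in Macrophage_1. In the cluster named DC, 7 dendritic cell markers summed to 131 CPM, beside 136 CPM in Macrophage_4 and 64.6 CPM in Macrophage_2. DC was the only cluster with UMIs of all 7. Neutrophil markers summed to 4009 CPM in DC and 4148 CPM in Macrophage_3, and monocyte markers to 2571 and 1332 CPM. Macrophage markers summed to 3184 CPM in DC and 15280 CPM in Macrophage_1. In CD3_T, T cell markers summed to 2324 CPM and NK cell markers to 4489 CPM. The granzyme gene Gzma, 1 of the 6 NK markers and also seen in CD8_T_2, made up 3716 CPM of the latter. UMIs of Cd3e, Cd3d, Cd3g or Trac were in 76.1% of CD3_T cells. Deposited names are kept, and clusters of the same cells are not independent of their genes, so differences between them are given without a test.

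The 3 ligands were highest in myeloid cells, 1 stromal cluster and 1 tumour cluster, and the 2 receptors in T cells. Cxcl9 peaked in Fibroblast&Endothelial_2 and Macrophage_1, Cxcl10 in MDSC_3, and Cxcl16 in Macrophage_1. Cxcr3 was highest in CD3_T and Cxcr6 in CD8_T_2.

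**Figure D1:**
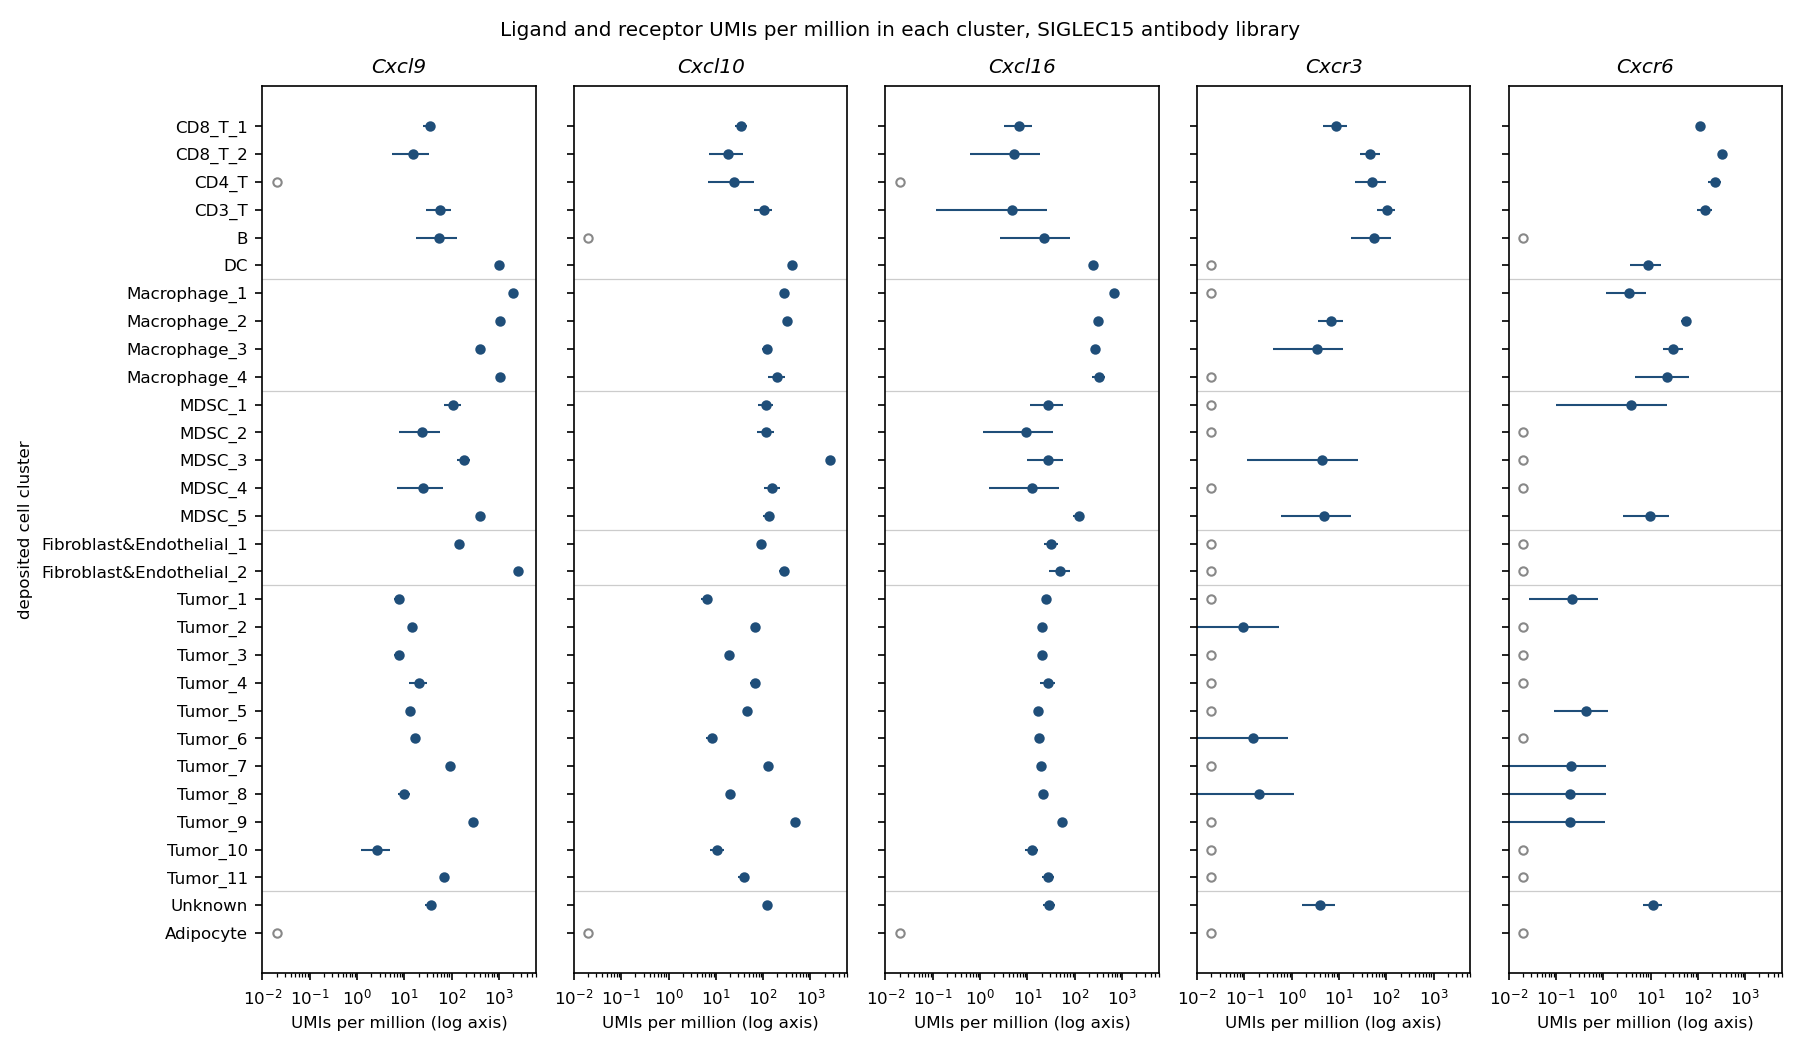
Level of each gene in each deposited cluster, in CPM on a log axis, with exact Poisson 95% intervals as bars; open circles at the left edge mark clusters with 0 UMIs, and intervals reaching below 0.01 are cut there. Cxcl10 in MDSC_3 stands at 2542 CPM, above its next cluster Tumor_9 at 472 CPM, while Cxcr6 is above 100 CPM only in the 4 T cell clusters.

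Cxcl9 was highest in Fibroblast&Endothelial_2, at 2512 CPM (2342 to 2691) from 54 cells. Of its 810 UMIs there, 277 came from 1 cell, 3 cells held 50% of them, and without that cell the level was 1746 CPM, below Macrophage_1. Macrophage_1 followed at 2024 CPM (1951 to 2099). The gene was broadly present in Macrophage_1: 81.5% of its 178 cells had a Cxcl9 UMI, and the expected share was 59.4% after thinning each cell to 1000 UMIs. In T cells, which are not known as a source of this ligand, 5.77% of cells had one at a median depth of 2808.5 UMIs, against a median of 7870.5 UMIs in Macrophage_1, and the thinned share was 2.20%. Macrophage_2 had 1056 CPM (1008 to 1105), Macrophage_4 had 1050 CPM (883 to 1240) and DC had 995 CPM (932 to 1062). The intervals of neighbours among these 3 clusters overlap, so their order is not resolved. Macrophage_3 at 406 CPM and MDSC_5 at 401 CPM came next and were not resolved from each other either. In MDSC_5, 70 of the 165 UMIs came from 1 cell, and the level without it was 236 CPM, below Tumor_9. Tumor_9 followed with 279 CPM (265 to 294), MDSC_3 with 182 CPM, Fibroblast&Endothelial_1 with 145 CPM and MDSC_1 with 106 CPM. Tumor_7 had 92.7 CPM, and 191 of its 453 UMIs came from 1 cell. CD4_T had 0 Cxcl9 UMIs, and the remaining 17 clusters ranged up to 68.9 CPM in Tumor_11.

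Within Fibroblast&Endothelial_2, the 25 cells with a Cxcl9 UMI had higher levels of 4 endothelial genes and lower levels of 4 matrix genes than the 29 cells without one. The endothelial adhesion gene Pecam1 was at 332 CPM in cells with Cxcl9, against 13.5 CPM in cells without it. The endothelial cadherin gene Cdh5 had 58 UMIs in cells with Cxcl9 and 0 UMIs in cells without it, and the growth factor receptor gene Kdr was at 263 and 33.9 CPM. Cldn5, a junction gene of endothelium, had 44 UMIs with Cxcl9 and 0 without it, and the fibroblast receptor gene Pdgfra had 0 UMIs on both sides. The matrix gene Dcn, a fibroblast marker, was at 149 CPM in cells with Cxcl9 and 1077 CPM in cells without it. The collagen genes were present on both sides, Col1a1 at 1556 CPM with Cxcl9 and 3285 CPM without it, Col1a2 at 1945 and 3664 CPM, and Col3a1 at 1396 and 3887 CPM. The guanylate-binding protein gene Gbp2, induced by interferon, was at 463 CPM in cells with Cxcl9 and 13.5 CPM in cells without it. Median depth also differed, at 6003 UMIs in cells with Cxcl9 and 1204 UMIs in cells without it, and its part in the split was not tested.

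In the DC cluster, the 86 cells with a Cxcl9 UMI had higher C1qa, C1qb and C1qc and lower levels of the 5 monocyte markers than the other 122 cells. C1qa, a complement gene of macrophages, was at 1044 CPM with Cxcl9 and 332 CPM without it, C1qb at 954 and 426 CPM, and C1qc at 513.5 and 202 CPM. Ly6c2 and Plac8, markers of inflammatory monocytes, were at 129 and 1085 CPM with Cxcl9, and at 435 and 2471 CPM without it. Ccr2, their chemokine receptor gene, was at 195 CPM with Cxcl9 and 576 CPM without it, Vcan at 16.6 and 121 CPM, and F13a1 at 22.9 and 177 CPM. Xcr1, the receptor of cross-presenting dendritic cells, had 8 UMIs in cells with Cxcl9 and 0 in cells without it. Median depth was 5145 UMIs with Cxcl9 and 3355 UMIs without it. The Cxcl16 split of this cluster had the same direction for C1qa, which was at 1093 CPM in the 83 cells with Cxcl16 and 258 CPM in the 125 without it. All 31 UMIs of Ccr7, the receptor of migratory dendritic cells, lay in 7 cells, each with Cxcl16.

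In Macrophage_1, the 145 cells with a Cxcl9 UMI had higher levels of Gbp2 and Iigp1, both interferon-inducible, than the 33 without one, at median depths of 7980 and 6955 UMIs. Gbp2 was at 304 CPM with Cxcl9 and 112 CPM without it, and the immunity-related GTPase gene Iigp1 at 300.2 CPM and 34.6 CPM. Mrc1, the mannose receptor of alternatively activated macrophages, ran the other way, at 136 CPM with Cxcl9 and 392 CPM without it. F13a1, a coagulation factor gene of monocytes and resident macrophages, was at 7.74 CPM with Cxcl9 and 146 CPM without it.

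Cxcl10 was highest in MDSC_3, at 2542 CPM (2338 to 2759), where 50.6% of 180 cells had a UMI at a median depth of 1059 UMIs. After thinning to 1000 UMIs the expected share was 51.5% of the 106 cells deep enough, and 74 shallower cells were left out. The share in T cells thinned alike was 2.08%. MDSC_1, MDSC_2 and MDSC_4, with depths close to that of MDSC_3, had 114, 114.5 and 157 CPM. Tumor_9 came second at 472 CPM (453 to 491), with a UMI in 65.3% of 248 cells and a thinned share of 25.5%. DC had 401 CPM (361 to 444). Macrophage_2 at 318 CPM, Macrophage_1 at 274 CPM, Fibroblast&Endothelial_2 at 269.8 CPM and Macrophage_4 at 196.5 CPM had intervals that meet from one to the next. In Fibroblast&Endothelial_2, 65 of the 87 UMIs lay in 1 cell, and the level without it was 69.7 CPM. In the 18 B cells there were 0 Cxcl10 UMIs, which allows up to 33.0 CPM.

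In MDSC_3, Isg15 and Gbp2, both interferon-inducible, were at like levels with and without a Cxcl10 UMI. The ubiquitin-like gene Isg15 was at 6334 CPM in the 91 cells with Cxcl10 and 6609 CPM in the 89 cells without it, and Gbp2 at 3007 CPM and 3265 CPM. Socs1, a feedback inhibitor of interferon signalling, was at 999.7 CPM with Cxcl10 and 516 CPM without it. Rsad2, an antiviral enzyme gene, was at 2215 CPM with Cxcl10 and 1459 CPM without it. Cxcl9 was low in both, at 239.9 CPM with Cxcl10 and 109 CPM without it.

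The balance of the 2 CXCR3 ligands differed between clusters, with most UMIs from Cxcl9 in macrophages and from Cxcl10 in MDSC_3 and Tumor_9. Cxcl9 made up 88.1% (86.9 to 89.2) of the 3269 UMIs of both genes in Macrophage_1 and 6.67% (4.83 to 8.94) of the 615 UMIs in MDSC_3. It made up 90.3% in Fibroblast&Endothelial_2, 76.9% in Macrophage_2, 77.3% in Macrophage_3, 84.2% in Macrophage_4, 75.3% in MDSC_5 and 71.3% in DC. Tumor_9 stood at 37.2% (35.7 to 38.7), Tumor_7 at 42.3% and Tumor_2 at 17.6%, against 58.0% over all cells. Tumour clusters were not uniform, since Tumor_6 and Tumor_11 had 67.3% and 63.9%, from 165 and 180 UMIs.

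**Figure D2:**
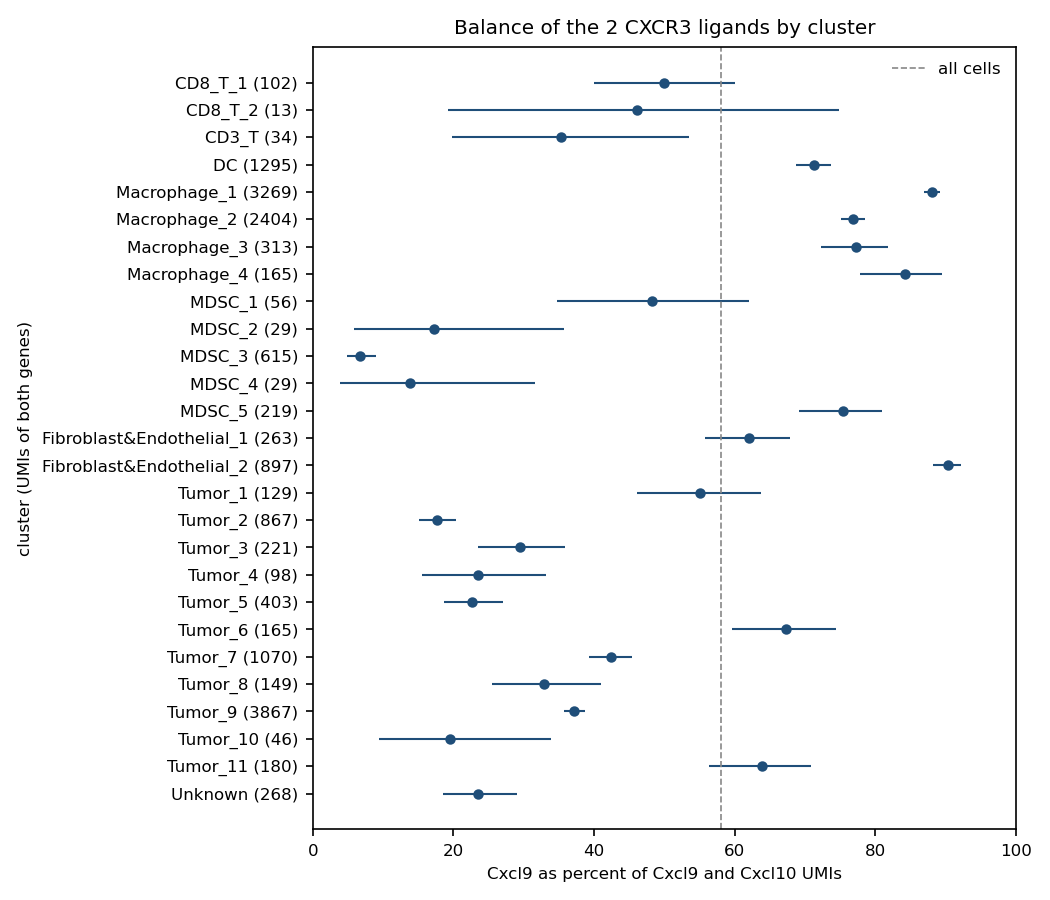
Cxcl9 as a percent of the UMIs of Cxcl9 and Cxcl10 together, by cluster, with exact Clopper-Pearson 95% intervals; the number of UMIs of both genes is in parentheses and the dashed line is the value over all cells. Macrophage clusters lie between 76.9% and 88.1%, and MDSC_3 lies at 6.67%.

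Cxcl16 was highest in Macrophage_1, at 685 CPM (642 to 729), where 90.4% of cells had a UMI and the thinned share was 46.8%. Macrophage_4 followed at 325 CPM (235 to 438), Macrophage_2 at 315 CPM (289 to 342), Macrophage_3 at 262 CPM (222 to 306) and DC at 239 CPM (209 to 273), with intervals that meet from each to the next. No single cell held much of it, since the highest cell of Macrophage_1 had 23 of 974 UMIs. MDSC_5 had 122 CPM and Tumor_9 had 54.2 CPM (48.0 to 60.9). The other 10 tumour clusters together had 20.2 CPM, and T cells had 5.75 CPM from 13 UMIs with a thinned share of 0.476%. MDSC_1 to MDSC_4 together had 17 Cxcl16 UMIs in 707 cells. CD4_T had 0 UMIs.

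The receptor Cxcr3 was sparse, with 93 UMIs in the whole library and wide intervals in every cluster. CD3_T had 103 CPM (64.6 to 156) with a UMI in 15.2% of 138 cells and in 9.47% after thinning. B cells had 55.0 CPM (17.9 to 128) from 5 UMIs in 5 of 18 cells. CD4_T had 49.4 CPM (21.3 to 97.4) and CD8_T_2 had 45.9 CPM (27.2 to 72.6). These 4 clusters have overlapping neighbours and their order is not resolved. CD8_T_1 was lower, at 8.70 CPM (4.63 to 14.9). Tumour cells had 3 UMIs in 3213 cells (0.0934% of cells), or 0.0480 CPM, at a median depth of 20428 UMIs, against 1367 UMIs in CD3_T. DC and the stromal clusters had 0 Cxcr3 UMIs, which allows up to 3.23 CPM in DC and 2.07 CPM in stroma.

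The receptor Cxcr6, with 521 UMIs, was highest in CD8_T_2 at 316 CPM (263 to 377), where 54.3% of 127 cells had a UMI and the thinned share was 27.3%. CD4_T had 229 CPM (161 to 315), CD3_T had 141 CPM (94.8 to 201) and CD8_T_1 had 112 CPM (95.4 to 130), with intervals that meet from each to the next. Tumour cells had 8 UMIs in 0.218% of cells, or 0.128 CPM, and a thinned share of 0.0109%, at a median depth of 20428 UMIs against 2591 UMIs in CD8_T_2. Outside T cells, Macrophage_2 had 54.9 CPM (44.4 to 67.0) with a UMI in 32.3% of 158 cells, and Macrophage_3 had 30.2 CPM. Macrophage_1 had 3.52 CPM from 5 UMIs. B cells and stroma had 0 Cxcr6 UMIs, which allows up to 33.0 and 2.07 CPM.

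The Cxcr6 UMIs of Macrophage_2 lay mostly in cells that also held T cell transcripts. Of its 158 cells, 76 (48.1%) had at least 3 UMIs of the T cell receptor complex genes Cd3e, Cd3d, Cd3g and Trac together with at least 3 UMIs of C1qa, C1qb and C1qc. Those 76 cells held 85 of the 96 Cxcr6 UMIs, and the other 82 cells had 13.6 CPM. By the T cell marker Cd3g, the 51 cells with Cxcr6 stood at 512 CPM and the 107 cells without it at 89.6 CPM. The cytokine gene Ifng, made by T and NK cells, was at 344 CPM with Cxcr6 and 61.2 CPM without it, while C1qa was at 1896 CPM and 2309 CPM. Median depths were 11286 and 10131 UMIs. Over the library, 126 cells met this rule, of which 12 were in CD8_T_1 and 15 in Macrophage_3. Without them, the level of Macrophage_3 was 4.70 CPM.

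**Figure D3:**
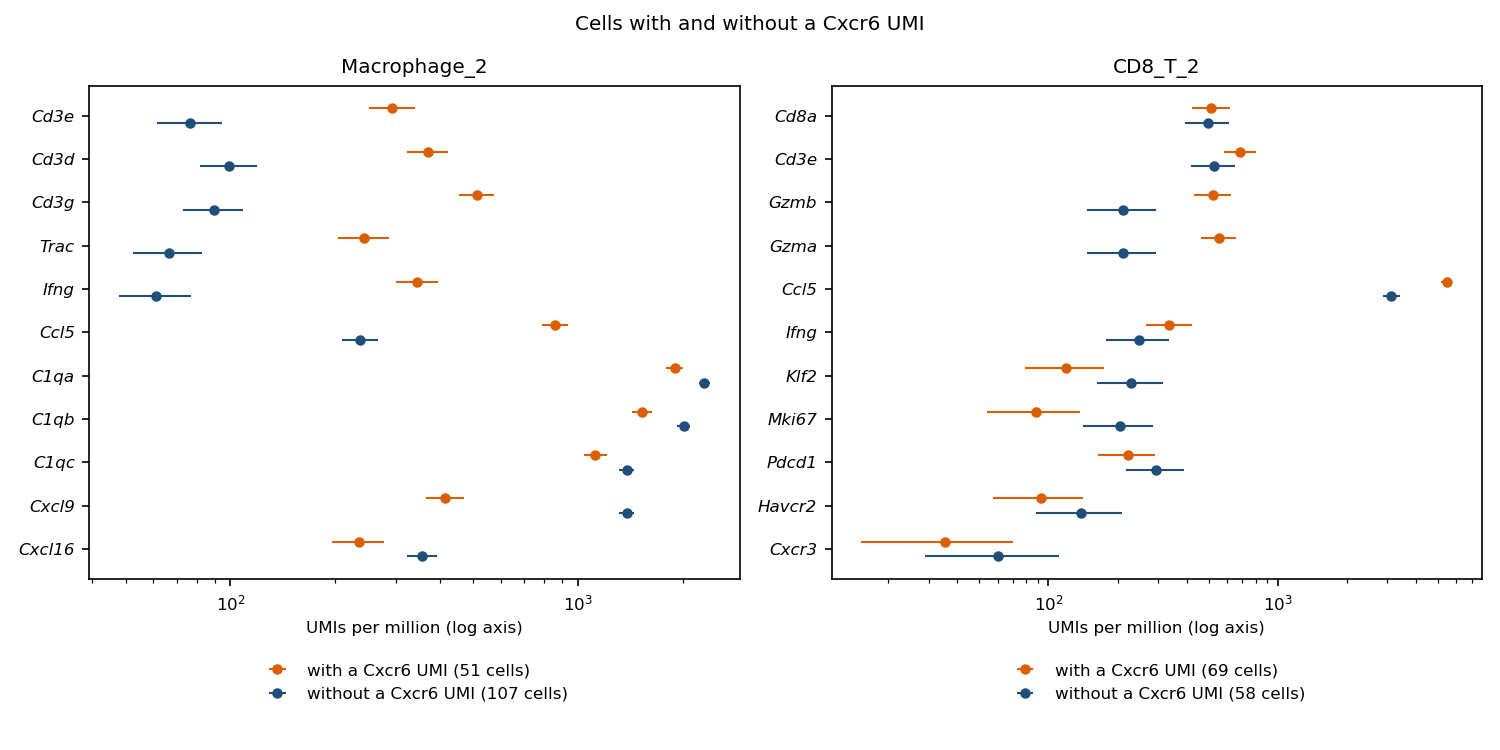
Levels of T cell, cytokine and macrophage genes in cells with a Cxcr6 UMI (orange, upper of each pair) and without one (blue), in Macrophage_2 on the left and CD8_T_2 on the right, in CPM on a log axis with exact Poisson 95% intervals. In Macrophage_2, Cd3g stands at 512 CPM in cells with Cxcr6 and 89.6 CPM in cells without it, and in CD8_T_2 Gzmb stands at 522 CPM and 211 CPM.

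In CD8_T_2, the 69 cells with Cxcr6 were set beside the 58 without it, at median depths of 2707 and 2302 UMIs. The granzyme gene Gzmb was at 522 CPM with Cxcr6 and 211 CPM without it, and Gzma at 553 CPM and 211 CPM, the 35 Gzma UMIs of cells without Cxcr6 lying in 5 cells. The chemokine gene Ccl5 was at 5453 CPM with Cxcr6 and 3123 CPM without it. Klf2, which keeps T cells circulating, was lower with Cxcr6, at 119 CPM against 229 CPM, as was the proliferation gene Mki67, at 88.4 CPM against 205 CPM. For Cd8a the values were 513 CPM (424 to 615) with Cxcr6 and 494 CPM (393 to 614) without it, and these intervals overlap.

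CD8_T_1 had the same direction for Mki67, at 479 CPM in its 86 cells with Cxcr6 and 629 CPM in its 122 without it, but not for Gzma, at 48.9 CPM and 205 CPM. Gzmb there was at 263 CPM with Cxcr6 and 229 CPM without it. Ifng was at 396 CPM with Cxcr6 and 221 CPM without it. In CD4_T, Ccl5 was at 52.3 CPM in the 17 cells with Cxcr6 and 411 CPM in the 30 without it, opposite to CD8_T_2.

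Within CD3_T, Cxcr6 UMIs were seen in cells with T cell markers and no NK marker, and 2 of them in cells with neither. Here the T cell markers were Cd3e, Cd3d, Cd3g and Trac, and the NK markers were Ncr1, Klrb1c, Klre1 and Klra8. Gzma and Eomes were not used, so cells with no NK marker by this rule can hold them. The 86 cells with T cell markers and no NK marker had Cxcr6 at 217 CPM (144 to 314), while the 21 cells with NK markers only and the 19 with both had 0 UMIs, which allows up to 80.5 and 88.6 CPM. Cxcr3 was at 132 CPM (76.9 to 211) in cells with T cell markers only, 80.5 CPM (16.6 to 235) in cells with NK markers only and 59.1 CPM (7.15 to 213) in cells with both, and these intervals overlap. In CD8_T_1, Cxcr6 was at 120 CPM in cells with both kinds of marker and 112.5 CPM in cells with T cell markers only, and in CD8_T_2 at 308.5 and 321 CPM. CD3_T cells with Cxcr6 had 0 UMIs of the NK receptor genes Klrb1c and Ncr1, against 49 and 33 UMIs in the 116 cells without it. The 21 CD3_T cells with a Cxcr3 UMI had Gzma at 902 CPM, against 4408 CPM in the 117 without one, and Gzmb at 71.2 CPM against 479 CPM. Tcf7, a transcription factor of naive and memory T cells, was at 237 CPM with Cxcr3 and 93.4 CPM without it, from 10 and 16 UMIs. Across all T cell clusters, Cxcr6 was at 227 CPM (172 to 293) in 57 cells with Cd4 and no Cd8 transcript and 156 CPM (137 to 175) in 339 cells with Cd8a or Cd8b1 and no Cd4. Cxcr3 was at 19.9 CPM (6.45 to 46.4) in the cells with Cd4 and 17.1 CPM (11.5 to 24.6) in those with Cd8a or Cd8b1.

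In UMIs summed over the library without scaling cells, the largest share of each ligand lay in macrophages or tumour cells, and that of each receptor in T cells. Macrophages held 51.3% of the 9961 Cxcl9 UMIs and tumour cells 25.9%. For Cxcl10, tumour cells held 64.0% of 7214 UMIs, macrophages 14.5% and MDSC_1 to MDSC_4 9.04%. Tumour cells held 84.3% of all UMIs, and when each cell was scaled to 10000 UMIs they held 22.5% of Cxcl10. Their leading share of Cxcl10 therefore holds for unscaled UMIs and depends on how cells are weighted. Median depth was 20428 UMIs in tumour cells and 1047 UMIs in MDSC_1 to MDSC_4. Macrophages held 48.3% of 3569 Cxcl16 UMIs and tumour cells 40.3%. T cells held 65.6% (55.0 to 75.1) of Cxcr3 UMIs and 68.7% (64.5 to 72.7) of Cxcr6 UMIs, while holding 3.05% of all UMIs. Macrophages held 23.4% of Cxcr6, and without the cells that had both T cell and complement transcripts the part in T cells was 87.2%.

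**Figure D4:**
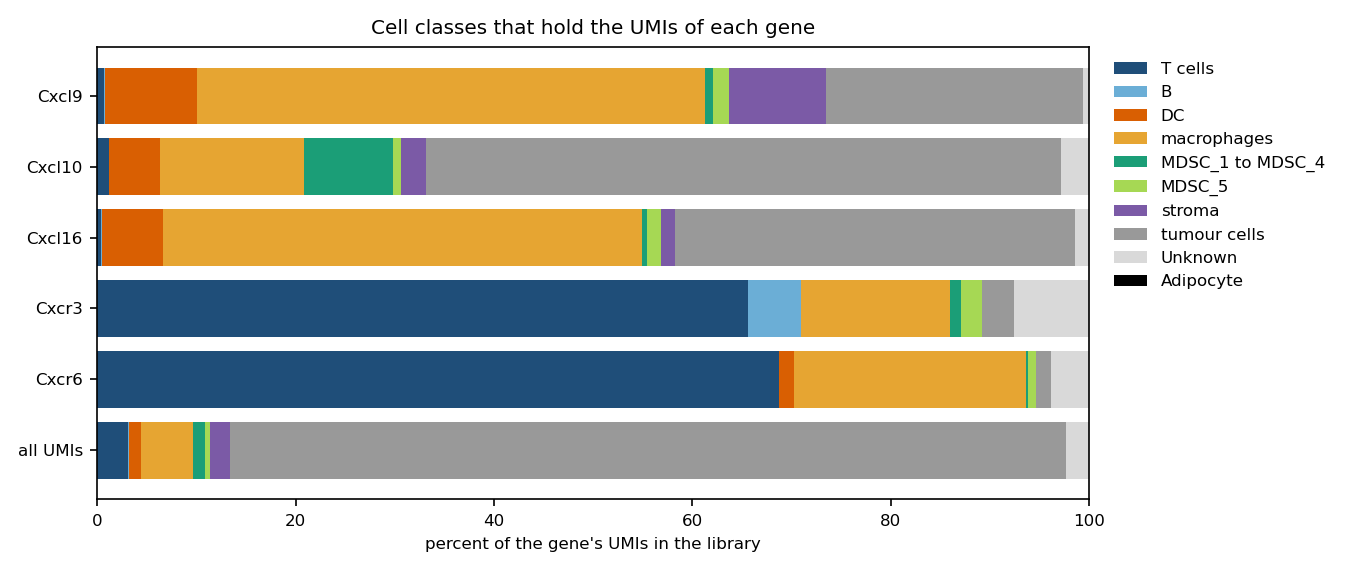
Percent of the UMIs of each gene that lie in each class of clusters, with all UMIs of the library in the lowest bar. T cells hold 65.6% of Cxcr3 and 68.7% of Cxcr6 UMIs but 3.05% of all UMIs, and tumour cells hold 64.0% of Cxcl10 UMIs and 84.3% of all UMIs.

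Cells holding both CXCR3 ligands were counted beside the product of the 2 shares of the same cluster, as a description. In Tumor_9, 86 cells had both Cxcl9 and Cxcl10 UMIs, against a product of 73.8 cells, and in DC 36 cells, against 23.2. Among other tumour clusters, Tumor_2 had 39 such cells against 18.1, Tumor_7 had 28 against 14.05 and Tumor_11 had 3 against 3.48. Over all tumour cells there were 200 against 79.6, a product of shares pooled over clusters. Those shares differed between tumour clusters, with Cxcl9 in 113 of 248 cells of Tumor_9 and 25 of 460 of Tumor_1. The pooled product does not take this into account, so 200 against 79.6 is not a comparison within clusters. In Macrophage_1, 133 cells had both Cxcl9 and Cxcl16, against a product of 131 cells. Cxcr3 and Cxcr6 were together in 18 of 520 T cells, against a product of 20.9 that was also pooled over clusters. For Tumor_9, DC, Macrophage_1 and T cells, median depths of the cells with both were 21306, 5677, 8016 and 2744.5 UMIs. The whole groups had 20880.5, 3796, 7870.5 and 2808.5 UMIs. In Tumor_2 and Tumor_7 the cells with both had 23675 and 26291 UMIs, against 21330.5 and 23388 UMIs. The part of depth in these counts was not tested. In Macrophage_2, 37 cells had both Cxcl16 and Cxcr6, against a product of 38.4 cells. Without the cells with T cell and complement transcripts, 3.66% of its cells had both.

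Other genes of the pathway were set side by side for T cells against the other immune cells, counting a gene as higher or lower at 2-fold or more with at least 10 UMIs over both sides. Of 12198 genes, 15.0% were higher and 23.8% lower in T cells, with a median log2 ratio of 0.04. Among the 5 members, the 2 receptors were higher and the 3 ligands lower in T cells. Cxcr6 was at 158 CPM in T cells and 21.9 CPM in other immune cells (log2 ratio 2.85), and Cxcr3 at 27.0 and 3.56 CPM (2.90). Of the transcription factors that regulate the receptors, 3 of 7 were higher, Tbx21, Eomes and Stat4, which drive type 1 and cytotoxic T cell programs, and 0 were lower. Tbx21 was at 39.4 CPM in T cells and 4.21 CPM in other immune cells. Of 14 T cell state genes, 9 were higher, among them the checkpoint receptor gene Pdcd1 at 222 CPM against 31.2 CPM. Members of that list, such as Cd8a and Cd4, are themselves T cell genes, so the count can follow from the cluster names. The integrin gene Itgae was lower, at 2.21 CPM in T cells and 8.74 CPM in other immune cells. Ifng was at 313 CPM in T cells and 50.3 CPM in other immune cells, while Irf1, a transcription factor induced by interferon gamma, was lower, at 66.8 CPM against 254 CPM. Of 17 other interferon-inducible genes, 0 were higher and 14 lower in T cells, such as Cd274, the ligand of that checkpoint receptor, at 11.9 CPM against 179 CPM, and the list's median log2 ratio was -2.92. Of 7 other lymphocyte chemokines, 2 were higher in T cells, Ccl5 at 1989 against 266 CPM and Xcl1 at 366.5 against 35.9 CPM, and 4 were lower. The chemokine receptor gene Cxcr4 was lower, at 21.2 CPM in T cells and 85.1 CPM in other immune cells. These other immune cells include Macrophage_2, where 48.1% of cells held both T cell and complement transcripts. Of the UMIs in macrophages, Macrophage_2 held 274 of 289 for Ifng, 171 of 184 for Xcl1, 18 of 20 for Tbx21 and 96 of 122 for Cxcr6. The part of such mixed cells in this comparison was not tested.

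Macrophages and DC together were set against the other immune cells in the same way, where 13.7% of genes were higher and 13.7% lower. Cxcl9 was at 1249 CPM in macrophages and DC and 87.5 CPM in other immune cells, Cxcl16 at 403 CPM and 22.7 CPM, and Cxcl10 at 293 CPM and 219 CPM, under 2-fold. Pf4, the platelet chemokine that also binds CXCR3, was at 519 CPM in macrophages and DC and 15.8 CPM in other immune cells, and reached 2198 CPM in Macrophage_3. Of the proteases that act on the ligands, Adam17 was higher, at 96.1 CPM against 42.1 CPM, while Adam10 was at 55.5 and 37.4 CPM and Dpp4, which trims CXCR3 ligands, at 12.8 and 14.1 CPM. Of 7 other lymphocyte chemokines with enough UMIs, 3 were higher in macrophages and DC, Ccl2, Ccl17 and Ccl22, and 4 lower, Ccl3, Ccl4, Ccl5 and Xcl1. Among chemokine receptors, Ccr2 was at 135 CPM in macrophages and DC and 47.1 CPM in other immune cells, Cx3cr1 at 71.5 and 32.9 CPM, and Cxcr4 at 41.0 and 104 CPM. Of the 17 other interferon-inducible genes, 3 were higher, Gbp3, Iigp1 and the class II activator gene Ciita, and 2 lower, Isg15 and Rsad2, with a list median of -0.03 beside -0.08 over all genes.

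Tumor_9 stood apart from the other 10 tumour clusters in the ligands and in interferon-inducible genes. Of 13435 genes, 5.6% were at least 2-fold higher and 5.72% at least 2-fold lower in Tumor_9, with a median log2 ratio of 0.11. Cxcl9 was at 279 CPM in Tumor_9 and 19.9 CPM in the other tumour clusters, Cxcl10 at 472 and 38.1 CPM, and Cxcl16 at 54.2 and 20.2 CPM. Of 17 other interferon-inducible genes, 15 were higher and 0 lower, with a median log2 ratio of 1.79. Gbp2 was at 415 CPM in Tumor_9 and 51.0 CPM in the others, and the peptide transporter gene Tap1 at 252 and 73.1 CPM. Of the interferon gamma signalling genes, Irf1 was higher, at 136 against 52.5 CPM, and so was Socs1 at 59.0 against 11.6 CPM. The receptor subunit genes Ifngr1 and Ifngr2 and the kinase genes Jak1 and Jak2 were within 2-fold. Ifng itself had 1 UMI in Tumor_9.

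**Figure D5:**
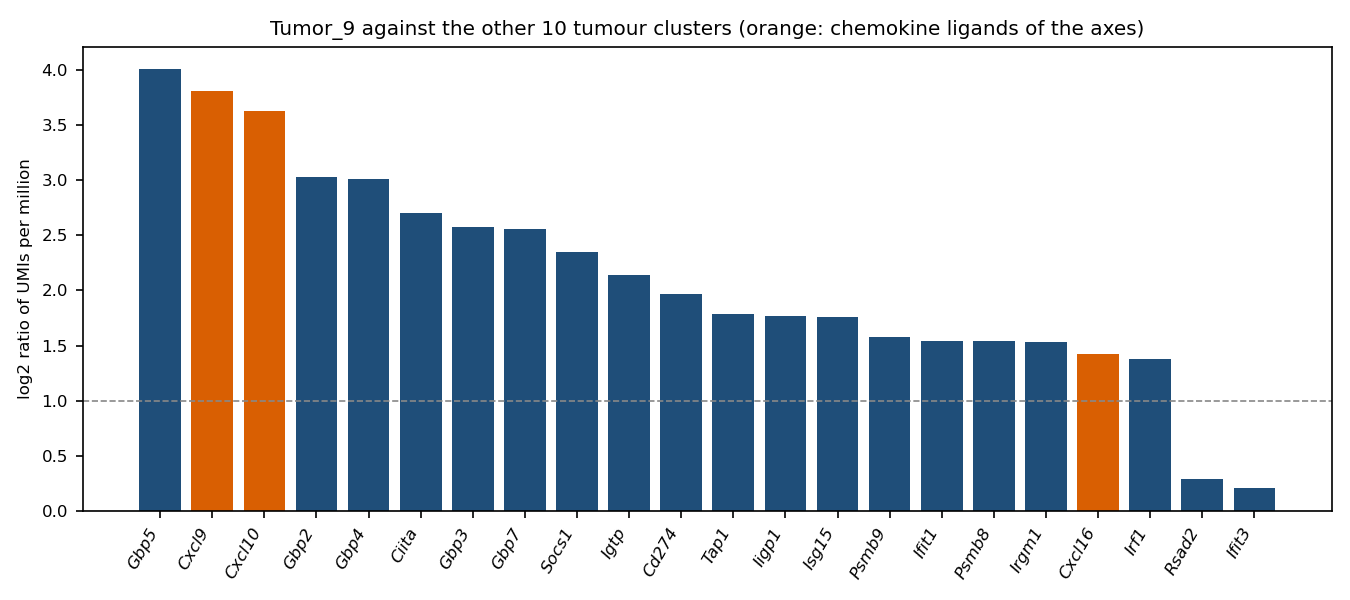
Log2 ratio of CPM in Tumor_9 over the other 10 tumour clusters, for the 3 ligands (orange), 17 interferon-inducible genes and the interferon signalling genes Irf1 and Socs1; the dashed line marks 2-fold. Cxcl9 at 3.81 and Cxcl10 at 3.63 lie among the highest, and Rsad2 at 0.29 and Ifit3 at 0.21 lie below the line.

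Within Tumor_9, the 162 cells with a Cxcl10 UMI had higher Gbp2, at 493 CPM, than the 86 cells without one, at 261 CPM, at median depths of 21306 and 20559 UMIs. Cxcl9 was at 376 CPM with Cxcl10 and 88.1 CPM without it, and Irf1 at 158 and 93.9 CPM. C1qa was at 2.92 CPM with Cxcl10 and 2.32 CPM without it, and C1qa, C1qb and C1qc summed to 7.19 CPM over Tumor_9. By the rule above, 0 cells of Tumor_9, and 0 of every other tumour cluster, held both T cell and complement transcripts. That rule needs both kinds of transcript, so it cannot mark a tumour cell mixed with a macrophage or a T cell alone. The whole list of 7 macrophage markers, which includes the lipid carrier gene Apoe that liver cells also express, summed to 7277 CPM in Tumor_9, with Adgre1 at 0, and to between 2819 and 12540 CPM in the other tumour clusters. The 6 T cell markers summed to 3.11 CPM in Tumor_9 and to between 1.02 and 8.83 CPM in the others. Of 8 other lymphocyte chemokines with enough UMIs, 5 were higher in Tumor_9, Ccl2, Ccl5, Ccl17, Ccl22 and Cx3cl1, at 18.8 CPM or less, and 0 were lower. Ccl17 rested on 4 UMIs in Tumor_9 and passed 2-fold with the prior count of 0.5 on each sum, and the 13 Ccl22 UMIs lay in 0.806% of the cells. Of 9 T cell state genes with enough UMIs, 5 were higher in Tumor_9 and 0 lower, with a median log2 ratio of 1.24, and these were Cd8a, Cd69, S1pr1, Ccr7 and Gzmb, with 3 to 13 UMIs each.

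The genes whose levels followed each member most closely were ranked by Pearson correlation of log2(CPM + 10) across the 26 clusters of at least 50 cells, among 5912 genes. The clusters share 1 library and differ in depth, so these values describe this library. The 5 genes nearest Cxcl10 were Gbp2 (r = 0.88), Parp12, Gbp7, Gbp5 and Tap1, all known as interferon-inducible. Those nearest Cxcl9 were Clic4 (r = 0.87), Itga9, Mef2c, Cd36 and Rap2a, and those nearest Cxcl16 were Slamf9 (r = 0.95), Daglb, Acp2, H2-DMb1 and Plekho1. Those nearest Cxcr3 were Gzma (r = 0.96), Lax1, Tbx21, Padi2 and S1pr4, and those nearest Cxcr6 were Ikzf3, Ctla4, Cd8a (each r = 0.99), Cd247 and Cd226. Between members, r was 0.72 for Cxcl9 with Cxcl10, 0.82 for Cxcl9 with Cxcl16, 0.48 for Cxcl10 with Cxcl16 and 0.84 for Cxcr3 with Cxcr6, and the 6 pairs of a ligand and a receptor lay between -0.28 and 0.09. By rank correlation 0, 2, 0, 1 and 1 of the 5 nearest genes were kept for Cxcl9, Cxcl10, Cxcl16, Cxcr3 and Cxcr6. The rank correlation was lower for Cxcr3 with Gzma, at 0.58, and for Cxcr3 with Cxcr6, at 0.52. It was higher for Cxcl9 with Cxcl10, at 0.84.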

How the data were processed

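Single cells were profiled with 10x 3′ v2 chemistry, per the labels' protocols, and the submitters' processing notes name Cell Ranger 2.1.1. What build, cell filters and clustering were used is not given in the sources used here. The authors deposited a cluster name for each cell and natural log values: UMI counts scaled to 10000 in each cell, with 1 added before the log. Whole UMIs were recovered from these logs in all 5482 cells of the SIGLEC15 antibody library, within a tolerance of 0.001. For the IgG library, 105 genes could be read in full and 0 of them were members.

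Levels were CPM from UMIs summed over a cluster, and 0 columns were left unused. Ratios between classes had a prior count of 0.5 on each sum. A thinned share is the mean probability, over cells with at least 1000 UMIs, that a draw of 1000 UMIs holds the gene. A limit for 0 UMIs is 3 counts. With 1 library per treatment no test was made. Scrublet in scanpy 1.11.5 marked 3 of 5482 cells (0.055%) as doublets, too few to count as a working call. Intervals, thinning and ratios were tested on simulated data. Python 3.11.15, numpy 2.4.6, pandas 2.3.3, scipy 1.17.1 and matplotlib 3.10.9 were used.

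The members and gene lists were chosen with earlier results of these data known, and the motifs after the sequences had been seen. Genes beyond the members were named from those lists, the cell type markers, or as the 5 most alike by correlation, among genes with at least 100 UMIs and 50 CPM in 1 cluster, without ribosomal, mitochondrial, haemoglobin, receptor segment and unnamed genes. Alternatives were other depth minimums and thinning depths, other weights, cells left out, other UMI minimums and other correlations. Values for some genes of these lists are not reported here.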

Additional observations from a re-analysis of the deposited data

How the results depend on the processing

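Of 149 alternatives over 36 results, 110 left the value within its interval and 39 moved it. Thinning to fewer or more UMIs tends to lower or raise a share, and leaving out the highest cell tends to lower a level. The tally includes such alternatives, so it is not a measure of robustness alone. No paired analysis was possible because each treatment had 1 library and no test was made. Cxcl9 in Fibroblast&Endothelial_2 was 1746 CPM without its highest cell, which is also its top 1% of cells, and 2791 CPM without the 5% of cells with the highest doublet scores. Without the top 1% of cells, Cxcl9 was 1928 CPM in Macrophage_1, and Cxcl10 was 2307 CPM in MDSC_3 and 429.6 CPM in Tumor_9. Without its highest cell, Cxcl10 in Tumor_9 was 449 CPM, and with at least 2000 UMIs per cell Cxcl10 in MDSC_3 was 1754 CPM. Thinning to 600 and 2000 UMIs gave shares of 50.2% and 69.7% for Cxcl9 and 32.6% and 68.0% for Cxcl16 in Macrophage_1, 41.5% and 71.9% for Cxcl10 in MDSC_3, 18.5% and 35.3% for Cxcl10 in Tumor_9, and 17.9% and 46.8% for Cxcr6 in CD8_T_2. For Cxcr3 in CD3_T, thinning to 2000 UMIs gave 22.8%. Cells with fewer than 2000 UMIs are left out of such a share, and median depth was 1367 UMIs in CD3_T and 1059 UMIs in MDSC_3. In these clusters the shares at 2000 UMIs therefore describe a minority of deeper cells.

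Leaving out the highest cell, the highest doublet scores, or cells holding both T cell and complement transcripts were alternatives chosen after seeing the data. Without the cells holding both, Cxcr6 in Macrophage_2 was 13.6 CPM and 3.66% of its cells had both Cxcl16 and Cxcr6. Macrophages then held 48.1% of Cxcl9 and 44.1% of Cxcl16 UMIs, tumour cells 67.2% of Cxcl10 and T cells 87.2% of Cxcr6. Tumour cells held 65.8% and 70.2% of Cxcl10 UMIs with at least 1000 and 2000 UMIs per cell. With each cell scaled to 10000 UMIs, macrophages held 55.8% of Cxcl9 and 61.0% of Cxcl16, tumour cells 22.5% of Cxcl10, and T cells 88.3% of Cxcr3 and 84.9% of Cxcr6. Depth limits the Cxcr3 values, which rest on 93 UMIs in the library.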
